A study of Homo sapiens with 9 samples.

Results

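The genes described are 8 that bring cholesterol into a cell, move it between compartments or store it: VLDLR, LRP8, SCARB1, LIPA, NPC1, NPC2, STARD4 and SOAT1. They were chosen for their shared function, with earlier results of these data known. Every probe set annotated to exactly 1 of them was taken, which gave 20 probe sets of the 41091 that carry 1 gene symbol, and 8 of 19777 genes. The expression data come from 9 Affymetrix HG-U133 Plus 2.0 arrays of PANC-1 cells, an established line from a human pancreatic adenocarcinoma, with 3 arrays in each of 3 groups: DMSO vehicle, 0.1 µM TVB-3166 and 1.0 µM TVB-3166. TVB-3166 is a small-molecule inhibitor of fatty acid synthase, the enzyme that makes palmitate. All groups were kept for 72 hours in a medium with charcoal-filtered serum and are of this 1 cell line. The comparisons ask how the messenger RNA of cholesterol uptake and trafficking genes differs after inhibition of palmitate synthesis at each dose.

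Cells take up cholesterol by binding lipoproteins at the surface and carrying them to the lysosome. There an acid lipase frees cholesterol from its esters, and a soluble and a membrane protein pass it on across the lysosomal membrane. Cytosolic carriers then move it to the endoplasmic reticulum, where an acyltransferase can turn it back into esters for lipid droplets. SREBP-2, a transcription factor held in the endoplasmic reticulum while sterol is plentiful, switches on many genes of sterol synthesis and uptake, and the liver X receptors switch on genes of sterol export when sterols are high.

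All 9 arrays were scaled by the authors to 1 trimmed mean signal, 500.1, and the correlation across genes of arrays within a group was 0.981 to 0.9899. The 10 epithelial and PANC-1 marker genes were all above the level filter, with summed signals of 76497 to 103407 in DMSO, 68349 to 97723 at 0.1 µM and 59513 to 84321 at 1.0 µM. Of the 4 blood and immune markers with a probe set 1 was above it (CD3E), and their summed signal was 80.0 to 219, 149.1 to 208 and 82.2 to 116 in the same order. Markers of other cells were sparse too: 1 of 4 for pancreatic acinar and endocrine cells, 1 of 4 for endothelium and 2 of 4 for prostate and liver were above the filter. In such whole-culture RNA, fewer cells of a kind and less RNA per cell cannot be told apart. The arrays part into a set of 4 with higher hybridisation spike signal (DMSO replicate 2, 0.1 µM replicates 1 and 3 and 1.0 µM replicate 2) and a set of 5 with lower, so each gene's changes are also given within the sets. The lower set has 1 array at 0.1 µM, and the higher set has 1 DMSO and 1 1.0 µM array. Apart from 1.0 µM against DMSO in the lower set, a test within a set therefore has an arm of 1 array, assumed to vary like the other groups. The labels do not say that replicates were separate cultures, so p-values measure only the spread between these arrays.

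At 1.0 µM against DMSO 5 of the 8 genes rose (LRP8, NPC1, STARD4, VLDLR and SOAT1), SCARB1 fell and NPC2 and LIPA were not called. This compares with 23.2% of all 13948 genes tested that were called, 12.3% higher and 11.0% lower. At 0.1 µM against DMSO 6 rose (the same 5 and LIPA), SCARB1 fell and NPC2 was not called, beside 12.0% called among all genes, 6.89% higher and 5.11% lower. The median log2 change of the 8 genes was 0.68 at 1.0 µM and 0.66 at 0.1 µM, and that of all genes tested was 0.01 and −0.01. Both comparisons share the 3 DMSO arrays. Because the 8 genes were chosen with earlier results of these data known, these counts and medians are no test of the set. The threshold for a call was an adjusted p of 0.05 in limma's moderated test, and changes are log2 differences of (signal + 16) ± limma's standard error with n = 3 arrays per group.

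**Figure D1:**
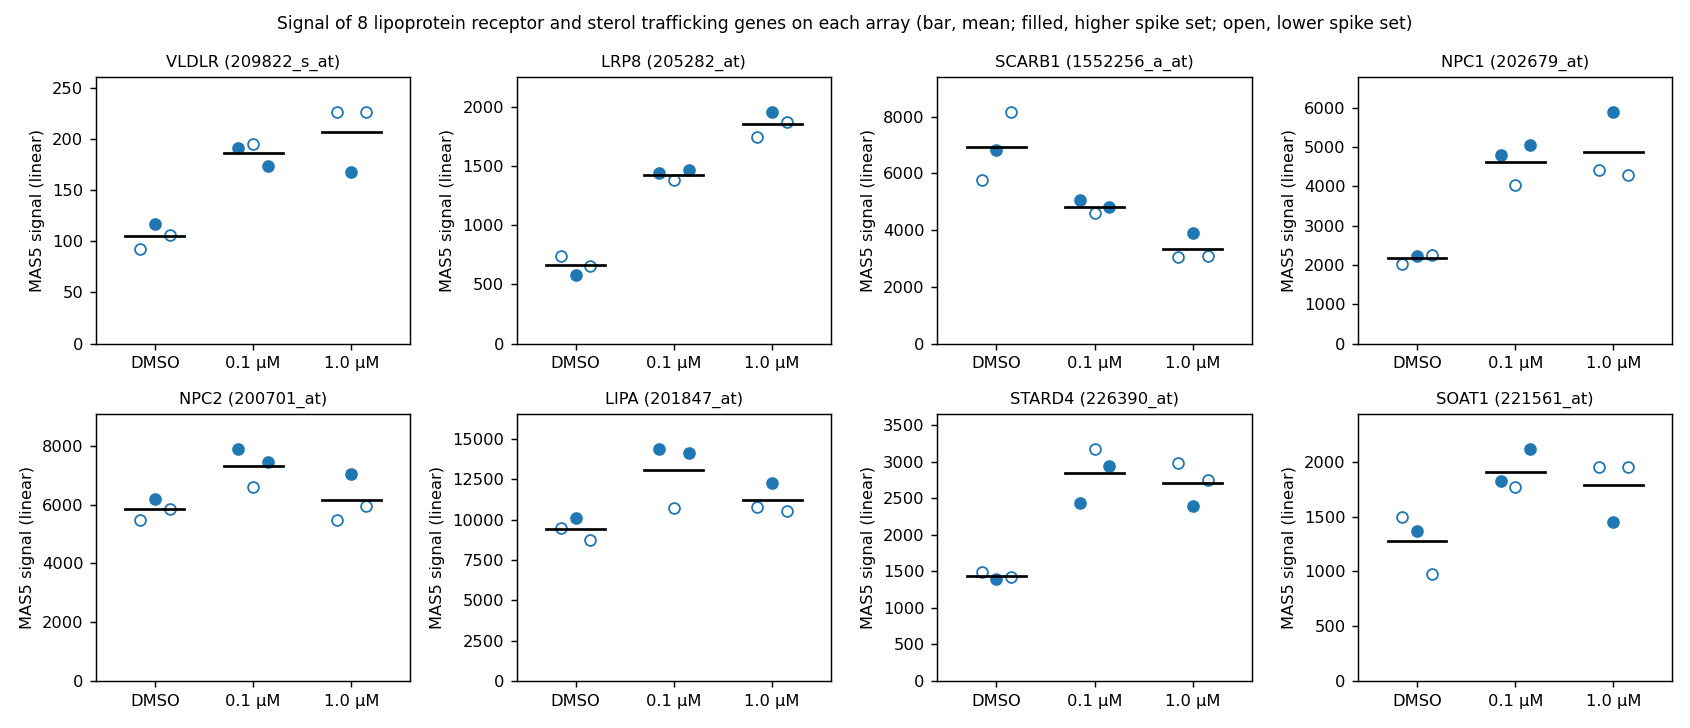
MAS5 signal (linear, from 0) of the brightest probe set of each of the 8 genes on each array, by dose. Points are arrays, filled for the higher and open for the lower hybridisation spike set, and bars are group means; LRP8, NPC1, STARD4 and VLDLR lie above the DMSO arrays on every treated array, and SCARB1 lies below them.

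**Figure D2:**
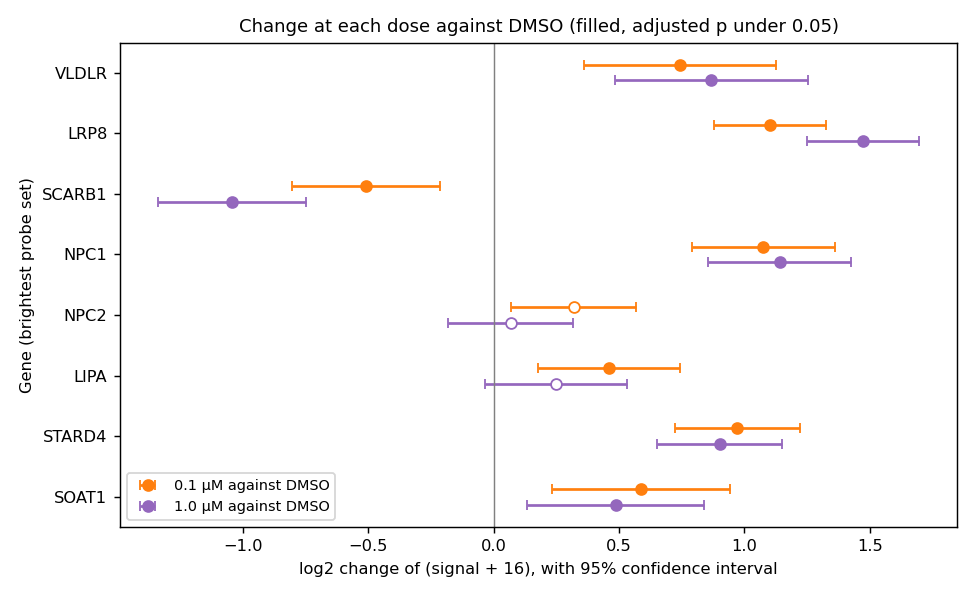
Log2 change of (signal + 16) for each gene at 0.1 µM and at 1.0 µM against DMSO, with 95% confidence intervals from limma (n = 3 arrays per group). Filled points had an adjusted p under 0.05; LRP8 has the highest value at 1.0 µM, 1.47, and SCARB1, at −1.04, is the only point below 0 at that dose.

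The promoters of the 4 genes with the largest rises are shown, picked by the size of the rise. Whether these genes move together was not tested. They are RefSeq promoter windows on GRCh38.p14, from 250 bases before to 50 after the gene's annotated start, read 5′ to 3′ on the gene's strand: VLDLR at chr9:2621537-2621836 on the plus strand, LRP8 at chr1:53328021-53328320 on the minus strand, NPC1 at chr18:23586457-23586756 on the minus strand and STARD4 at chr5:111512486-111512785 on the minus strand. Capitals mark a GC box (GGGCGG, the letters bound by SP1-type factors) or a CCAAT box (CCAAT, bound by NF-Y), on either strand.
VLDLR: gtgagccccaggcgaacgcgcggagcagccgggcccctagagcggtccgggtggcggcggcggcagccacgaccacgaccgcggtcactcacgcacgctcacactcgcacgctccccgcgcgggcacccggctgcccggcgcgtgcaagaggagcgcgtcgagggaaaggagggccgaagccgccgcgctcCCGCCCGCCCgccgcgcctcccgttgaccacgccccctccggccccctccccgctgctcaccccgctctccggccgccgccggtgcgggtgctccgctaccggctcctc
LRP8: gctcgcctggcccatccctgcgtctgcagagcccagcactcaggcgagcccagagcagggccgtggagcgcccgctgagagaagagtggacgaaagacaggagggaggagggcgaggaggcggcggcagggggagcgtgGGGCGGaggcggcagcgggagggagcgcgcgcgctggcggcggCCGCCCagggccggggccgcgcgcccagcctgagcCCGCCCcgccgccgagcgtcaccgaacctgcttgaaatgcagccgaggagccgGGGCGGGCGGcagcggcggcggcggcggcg
NPC1: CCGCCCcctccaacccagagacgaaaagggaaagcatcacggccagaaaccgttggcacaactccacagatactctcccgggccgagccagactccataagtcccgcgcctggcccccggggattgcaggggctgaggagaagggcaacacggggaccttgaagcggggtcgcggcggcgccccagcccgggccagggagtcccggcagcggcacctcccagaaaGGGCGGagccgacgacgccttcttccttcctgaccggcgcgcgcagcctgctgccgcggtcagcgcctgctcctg
STARD4: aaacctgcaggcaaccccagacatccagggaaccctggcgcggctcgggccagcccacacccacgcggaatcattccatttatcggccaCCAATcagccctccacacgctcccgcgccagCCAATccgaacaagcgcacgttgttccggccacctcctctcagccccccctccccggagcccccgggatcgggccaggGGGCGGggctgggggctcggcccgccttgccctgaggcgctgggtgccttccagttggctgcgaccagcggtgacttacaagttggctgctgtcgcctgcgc

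The GC box is in all 4 windows, and the paired matches of VLDLR and the downstream pair of LRP8 overlap each other. STARD4 also has a pair of CCAAT boxes, 161 and 130 bases before its start. Windows were found for 7 of the 8 genes, all but SCARB1, the only member that fell. These made 10 windows, since NPC2 and LIPA have several starts. The NPC2 windows overlap each other, so the 10 are not separate observations. The GC box was in 9 of the 10, against 45.0% of all 35116 promoter windows. The NPC2 windows held 7 and 9 matches although NPC2 was not called, so the box was not particular to genes that rose. The windows of these 4 genes were 69.0% to 79.0% G and C, against a median of 58.7% over all windows. The CCAAT box was in 5 of the 10 windows and in 34.6% of all. Neither the sterol regulatory element TCACNCCAC (1.13% of all windows) nor the E-box CACGTG (7.26%) was in any of the 10, which says only that these letters are not in these windows.

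Of the receptors, LRP8 (Entrez gene 7804), the apolipoprotein E receptor that in neurons also binds reelin, had the largest change of the group. On probe set 205282_at its signal was 742, 583 and 655 on the DMSO arrays, 1439, 1382 and 1463 at 0.1 µM and 1743, 1957 and 1869 at 1.0 µM. On this probe set the 3 groups did not overlap and stood in the order of dose, but on the other LRP8 probe sets the doses overlapped. LRP8 rose by 1.47 ± 0.10 at 1.0 µM (2.78-fold, adjusted p = 1.56e-06) and by 1.10 ± 0.10 at 0.1 µM (2.14-fold, adjusted p = 3.25e-05). Its other probe sets moved the same way: 208433_s_at rose by 1.37 ± 0.15 and 228955_at by 1.24 ± 0.13 at 1.0 µM, and by 1.25 ± 0.15 and 1.17 ± 0.13 at 0.1 µM. All 3 were called at both doses in the fit over 32768 probe sets, where 17.6% of probe sets were called at 1.0 µM and 8.25% at 0.1 µM. On 205282_at the change within the lower spike set was 1.35 at 1.0 µM and 0.97 at 0.1 µM, and within the higher set it was 1.72 and 1.29.

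VLDLR (Entrez gene 7436), a close relative of LRP8 that binds triglyceride-rich particles and apolipoprotein E, has 1 probe set, 209822_s_at, with low signals. These were 92.8, 117 and 106 in DMSO, 191.3, 196 and 173 at 0.1 µM and 227, 168 and 226 at 1.0 µM. Every treated array was above every DMSO array, and the doses overlapped. VLDLR rose by 0.87 ± 0.18 at 1.0 µM (adjusted p = 0.00363) and by 0.74 ± 0.18 at 0.1 µM (adjusted p = 0.0169). At 1.0 µM its change was 1.07 within the lower spike set, and within the higher set, with 1 array per group, it was 0.46 (adjusted p = 0.360). At 0.1 µM, where both sets have an arm of 1 array, it was 0.88 in the lower and 0.57 in the higher (adjusted p = 0.127 and 0.217). The call at 0.1 µM ended when DMSO replicate 1 was left out (0.67, adjusted p = 0.0631) and when 0.1 µM replicate 1 was (0.73, adjusted p = 0.0601).

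SCARB1 (Entrez gene 949), the receptor that takes cholesteryl esters selectively from high-density lipoprotein, was the only member that fell. Probe set 1552256_a_at had signals of 5776, 6816 and 8169 in DMSO, 5057, 4589.9 and 4800.4 at 0.1 µM and 3038, 3910 and 3071 at 1.0 µM. The groups did not overlap and stood in descending order of dose. SCARB1 fell by 1.04 ± 0.14 on the log2 scale at 1.0 µM (adjusted p = 0.000160), to 0.485 of the DMSO level, and by 0.51 ± 0.14 at 0.1 µM (adjusted p = 0.0292). A second bright probe set, 201819_at, had 2238, 2246 and 3216 in DMSO, 1897, 1760 and 1879 at 0.1 µM and 1192, 1141 and 1110.0 at 1.0 µM. It fell by 1.13 ± 0.13 at 1.0 µM (adjusted p = 9.52e-05), and its change at 0.1 µM was −0.45 ± 0.13 (adjusted p = 0.0537). The dimmer 215834_x_at and 232421_at were at −0.71 ± 0.30 and −0.99 ± 0.46 at 1.0 µM and were not called at either dose, and 215835_at lay below the filter.

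The call of SCARB1 at 0.1 µM was fragile, while that at 1.0 µM held under all 23 alternatives (−1.17 to −0.80). At 0.1 µM it ended under 9 of the 23, among them without DMSO replicate 2 (adjusted p = 0.0719) or 3 (0.0992), without 0.1 µM replicate 1 (0.0619), 2 (0.0723) or 3 (0.101), with median centring (0.0856), without the variance trend (0.0715) and in the lower spike set, with 1 array at 0.1 µM (0.197). The values under the 9 were −0.58 to −0.38. Within the lower and higher spike sets the change was −1.17 and −0.80 at 1.0 µM, and −0.58 and −0.47 at 0.1 µM.

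In the lysosome, NPC1 (Entrez gene 4864), the membrane protein that carries cholesterol out, more than doubled. On 202679_at the signal was 2031, 2240.1 and 2257 in DMSO, 4788, 4027 and 5045 at 0.1 µM and 4412, 5894 and 4277 at 1.0 µM. Each treated array lay far above the DMSO arrays, and the doses overlapped. NPC1 rose by 1.14 ± 0.13 at 1.0 µM (adjusted p = 6.22e-05) and by 1.08 ± 0.13 at 0.1 µM (2.11-fold, adjusted p = 0.000225). The dimmer 217584_at rose by 0.77 ± 0.21 at 1.0 µM (adjusted p = 0.0232) and was at 0.62 ± 0.21 at 0.1 µM (adjusted p = 0.0937). A further one, 238568_s_at, was at 0.39 ± 0.21 and 0.14 ± 0.21 and was not called, and 238873_at lay below the filter. With the mean of its probe sets NPC1 was called with smaller values, 0.77 at 1.0 µM and 0.61 at 0.1 µM. On 202679_at the change within the lower spike set was 1.02 at 1.0 µM and 0.91 at 0.1 µM, and within the higher set it was 1.39 and 1.13.

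NPC2 (Entrez gene 10577), the soluble lysosomal protein that hands cholesterol to NPC1, was not called at either dose. Its signals on 200701_at were 5484, 6189 and 5849 in DMSO, 7879.8, 6595 and 7429 at 0.1 µM and 5464, 7029.6 and 5944 at 1.0 µM. The 0.1 µM arrays were all above DMSO, and the 1.0 µM arrays overlapped it. NPC2 was at 0.32 ± 0.11 at 0.1 µM (adjusted p = 0.0971) and at 0.07 ± 0.11 at 1.0 µM (adjusted p = 0.741, 95% interval −0.18 to 0.32). Without 1.0 µM replicate 2 the 0.1 µM value was called (0.32, adjusted p = 0.0456).

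LIPA (Entrez gene 3988), the lysosomal acid lipase that frees cholesterol from its esters, showed a like pattern. Probe set 201847_at had 9479.8, 10122 and 8719 in DMSO, 14362, 10736 and 14103 at 0.1 µM and 10798, 12297 and 10536 at 1.0 µM. All treated arrays were above DMSO, and 0.1 µM replicate 2 lay among the 1.0 µM arrays. LIPA rose by 0.46 ± 0.13 at 0.1 µM (adjusted p = 0.0391) and was at 0.25 ± 0.13 at 1.0 µM (adjusted p = 0.205). Its other probe set, 236156_at, had signals of 3.6 to 8.7 on all arrays and was not tested.

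For both NPC2 and LIPA the higher spike arrays were the highest of their own group in all 3 groups, by 0.21 and 0.26 on the log2 scale on average, a pattern shared with 12.8% of genes. The 0.1 µM group holds more of these arrays than the others. Within the lower spike set the change at 0.1 µM was 0.22 for NPC2 and 0.24 for LIPA (1 array at 0.1 µM, adjusted p = 0.381 and 0.306), within the higher set it was 0.31 and 0.49, and with the spike set as a block it was 0.25 (adjusted p = 0.0352) and 0.37 (adjusted p = 0.00466). At 1.0 µM the change within the lower and higher sets was 0.01 and 0.18 for NPC2 and 0.23 and 0.28 for LIPA. With the block LIPA also rose at 1.0 µM (0.25, adjusted p = 0.0181), as it did with quantile normalization (0.26, adjusted p = 0.00854). With that normalization all 8 genes, NPC2 among them, were called at 0.1 µM. The call of LIPA at 0.1 µM was lost under 12 of 23 alternatives, among them no filter (adjusted p = 0.0673), median centring (0.0618) and no variance trend (0.0715), and in the fit over all probe sets 201847_at was not called (0.0528). It ended when any 1 of these arrays was left out: DMSO replicate 1 (adjusted p = 0.102), 2 (0.0579) or 3 (0.130), one of 0.1 µM replicates 1 (0.148) and 3 (0.168), or 1.0 µM replicate 1 (0.0514) or 3 (0.0598).

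STARD4 (Entrez gene 134429), a cytosolic carrier that moves cholesterol to the endoplasmic reticulum and whose gene is a known SREBP-2 target, nearly doubled. On its 1 probe set, 226390_at, signals were 1495, 1388 and 1428 in DMSO, 2435, 3171 and 2944 at 0.1 µM and 2984, 2396 and 2744 at 1.0 µM. Every treated array was above every DMSO array, and the ranges of the doses overlapped. STARD4 rose by 0.90 ± 0.11 at 1.0 µM (adjusted p = 0.000135) and by 0.97 ± 0.11 at 0.1 µM (adjusted p = 0.000178), and was called under all 23 alternatives at both doses. Its change within the lower spike set was 0.96 at 1.0 µM and 1.11 at 0.1 µM, and within the higher set it was 0.78 and 0.94.

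SOAT1 (Entrez gene 6646), the endoplasmic reticulum enzyme that esterifies cholesterol, was called with a small rise that not all of its probe sets shared. Signals on 221561_at were 1494, 1372 and 971 in DMSO, 1826, 1771 and 2114 at 0.1 µM and 1950.3, 1450.0 and 1955 at 1.0 µM. The 0.1 µM arrays were above DMSO, and 1.0 µM replicate 2 lay within the DMSO range. SOAT1 rose by 0.59 ± 0.16 at 0.1 µM (adjusted p = 0.0355) and by 0.49 ± 0.16 at 1.0 µM (adjusted p = 0.0491). In the fit over all probe sets 221561_at was called at 0.1 µM (adjusted p = 0.0469) and not at 1.0 µM (0.0609). Probe set 228479_at went the other way, with 832, 896 and 841 in DMSO, 826, 805 and 757 at 0.1 µM and 779, 726 and 703 at 1.0 µM. It was at −0.21 ± 0.09 at 1.0 µM (adjusted p = 0.152) and −0.10 ± 0.09 at 0.1 µM, and 244661_at was at 0.41 ± 0.21 and 0.25 ± 0.21, neither called. With the mean of its probe sets SOAT1 was at 0.23 at 1.0 µM (adjusted p = 0.251) and 0.24 at 0.1 µM (adjusted p = 0.274).

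The call of SOAT1 at 1.0 µM was lost under 16 of 23 alternatives, among them leaving out DMSO replicate 2 (adjusted p = 0.0656) or 3 (0.170), one of 0.1 µM replicates 1 (0.0632), 2 (0.0551) and 3 (0.0613), or 1.0 µM replicate 1 (0.149) or 3 (0.161), and the change was 0.69 within the lower spike set and 0.08 within the higher set. The lower and higher sets gave 0.55 and 0.51 at 0.1 µM. The call at 0.1 µM was lost under 9, among them leaving out DMSO replicate 2 (0.0540) or 3 (0.107) or 0.1 µM replicate 1 (0.0779) or 3 (0.153).

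**Figure D3:**
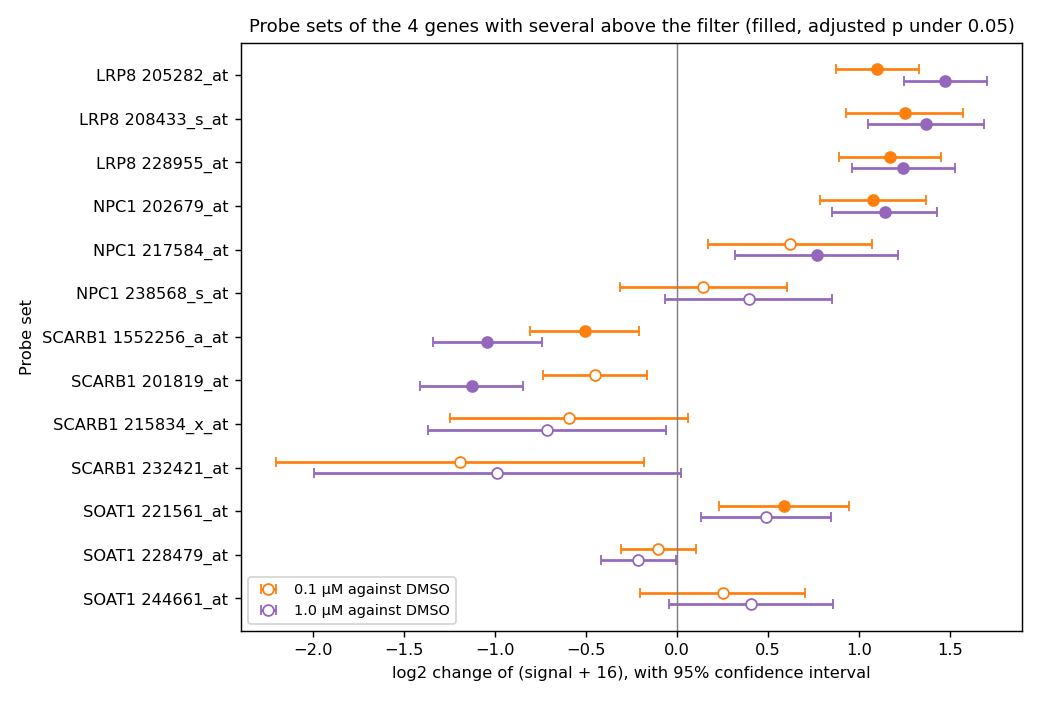
Log2 change of (signal + 16) at 0.1 µM and 1.0 µM against DMSO for each probe set above the level filter of LRP8, NPC1, SCARB1 and SOAT1, with 95% confidence intervals from the fit over all probe sets (n = 3 arrays per group; filled, adjusted p under 0.05). The 3 LRP8 probe sets lie between 1.10 and 1.47, all 4 of SCARB1 lie below 0, and those of SOAT1 lie on both sides of 0.

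Of the 17 probe sets above the filter 7 rose and 2 fell at 1.0 µM, and 7 rose and 1 fell at 0.1 µM, beside 17.6% and 8.25% of all probe sets called. The 8 genes had no overlap with the DMSO arrays in 6 cases at 1.0 µM and in 8 at 0.1 µM, beside 37.2% and 30.0% of all genes.

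Between the doses, 1.0 µM against 0.1 µM, limma called 0 of the 8 genes, beside 0.817% of all genes (0.387% higher, 0.430% lower). At an unadjusted p under 0.05 there were 3 of the 8, beside 12.4% of all genes. It called 0 of the 17 probe sets, beside 0.281% of all probe sets, and at an unadjusted p under 0.05 there were 3 of the 17, beside 10.8%. SCARB1 was lower at 1.0 µM without overlap, at −0.53 ± 0.14 (adjusted p = 0.0998) on 1552256_a_at and −0.68 ± 0.13 (adjusted p = 0.0611) on 201819_at. The first was called only without 1.0 µM replicate 2 (−0.65, adjusted p = 0.0383), and the second under 5 settings, with adjusted p = 0.0150 to 0.0425. LRP8 was higher at 1.0 µM without overlap on 205282_at, at 0.37 ± 0.10 (adjusted p = 0.133), but its other probe sets overlapped, at 0.12 ± 0.15 and 0.07 ± 0.13. These were the 2 genes of 8 without overlap between doses, beside 18.5% of all genes. For NPC1, STARD4, VLDLR and SOAT1 the differences were 0.06, −0.07, 0.13 and −0.10, with 95% intervals of −0.22 to 0.35, −0.32 to 0.18, −0.26 to 0.51 and −0.46 to 0.25. NPC2 was at −0.25 (interval −0.501 to −0.00299, limma's unadjusted p = 0.0477 and adjusted p = 0.399) and LIPA at −0.21 (interval −0.49 to 0.07). With SCARB1 and LRP8, NPC2 made up the 3 genes at an unadjusted p under 0.05. Within the lower and higher spike sets the dose difference was −0.58 and −0.33 for SCARB1, 0.38 and 0.43 for LRP8, 0.11 and 0.26 for NPC1, and −0.15 and −0.16 for STARD4. It was 0.20 and −0.11 for VLDLR, 0.14 and −0.43 for SOAT1, −0.21 and −0.12 for NPC2, and −0.0094 and −0.21 for LIPA.

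Other genes of uptake and trafficking were taken from lists written from general knowledge, which are not complete for the pathway. The lists too were chosen with earlier results of these data known. Among other lipoprotein and scavenger receptors and their adaptors falls outnumbered rises. Of 18 tested at 1.0 µM against DMSO 1 rose, 6 fell and 11 were not called, with a median of −0.09. At 0.1 µM 1 rose and 4 fell, with a median of −0.14. Of all genes tested 12.3% rose and 11.0% fell at 1.0 µM, and 6.89% rose and 5.11% fell at 0.1 µM. The riser was MYLIP, a liver X receptor target and ubiquitin ligase that marks VLDLR and LRP8 protein for breakdown, at 1.14 ± 0.12 (adjusted p = 3.30e-05) and 0.98 ± 0.12 at 0.1 µM. Among the falls were the Wnt co-receptor gene LRP5 (−1.11 ± 0.20), the sorting receptor gene SORL1 (−0.74 ± 0.14) and LRPAP1 (−0.55 ± 0.12), the chaperone of this receptor family. PDZK1, which in the mouse liver holds SCARB1 at the surface and was picked after its values were seen, fell by 0.85 ± 0.20 at 1.0 µM (adjusted p = 0.00921) and by 0.70 ± 0.20 at 0.1 µM (adjusted p = 0.0412).

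Among other sterol transfer proteins 4 of 22 rose and 0 fell at 1.0 µM, with a median of 0.11. At 0.1 µM 2 rose and 0 fell, with a median of 0.08. The shares that rose among all genes tested were 12.3% at 1.0 µM and 6.89% at 0.1 µM. The risers at 1.0 µM were the oxysterol-binding protein family genes OSBPL3 (1.28 ± 0.18), OSBPL6 (1.16 ± 0.15) and OSBPL11 (0.50 ± 0.10) and TMEM97 (0.65 ± 0.09). TMEM97 encodes an endoplasmic reticulum protein that binds NPC1. OSBPL3 had a mean signal of 107 ± 12.0 in DMSO, 153 ± 29.8 at 0.1 µM and 283 ± 14.2 at 1.0 µM (SD, n = 3). At 0.1 µM OSBPL6 (0.71 ± 0.15) and TMEM97 (0.92 ± 0.09) rose, while OSBPL3 was at 0.44 ± 0.18 (adjusted p = 0.140).

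Genes of ester turnover and sterol export were few. Of 9 tested 2 rose and 1 fell at 1.0 µM, with a median of 0.48. At 0.1 µM 1 rose and 1 fell, with a median of 0.16. Beside these, 12.3% of all genes rose and 11.0% fell at 1.0 µM, and 6.89% rose and 5.11% fell at 0.1 µM. The sterol exporter ABCA1 rose at both doses, with mean signals of 198 ± 19.0 in DMSO, 656 ± 76.0 at 0.1 µM and 714 ± 119 at 1.0 µM (SD, n = 3). NCEH1, a cholesteryl ester hydrolase, rose by 0.71 ± 0.22 at 1.0 µM, where ABCA7 fell by 0.61 ± 0.19 and ABCG1 was at 0.61 ± 0.21 (adjusted p = 0.0508).

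Other lysosomal genes had list medians near 0. Of 21 tested 5 rose and 3 fell at 1.0 µM, with a median of 0.03, beside 12.3% and 11.0% of all genes. At 0.1 µM 2 rose and 0 fell, with a median of 0.01, beside 6.89% and 5.11% of all genes. NEU1, a sialidase, rose by 0.59 ± 0.12, the cathepsin gene CTSL by 0.58 ± 0.12 and the peptidase gene TPP1 by 0.35 ± 0.10 at 1.0 µM, and GM2A, the activator of ganglioside breakdown, fell by 0.47 ± 0.11. The rise of NPC1 at 1.0 µM (1.14) was above every tested gene of this list, and NPC2 (0.07) and LIPA (0.25) lay within its range.

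Sterol synthesis enzymes and INSIG1 were mostly higher, as LRP8, NPC1 and STARD4 were. Of 16 tested 14 rose at each dose and 0 fell, beside 12.3% of all genes that rose at 1.0 µM and 6.89% at 0.1 µM. The medians were 0.83 at 1.0 µM and 1.09 at 0.1 µM. Between the doses the median difference of the list was −0.26. The 1.0 µM value was the lower one for every tested gene of the list, such as HMGCS1 (1.63 against 1.82 at 0.1 µM) and MVD (1.68 against 2.16). Among the members other than SCARB1, it was lower for STARD4 (0.90 against 0.97), SOAT1 (0.49 against 0.59), LIPA (0.25 against 0.46) and NPC2 (0.07 against 0.32). LRP8, NPC1 and VLDLR had their higher value at 1.0 µM, unlike any tested gene of the list. Among the members none of these differences between doses passed the test, and in the list TM7SF2, picked after its values were seen, alone did (−0.66 ± 0.11, adjusted p = 0.0225).

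**Figure D4:**
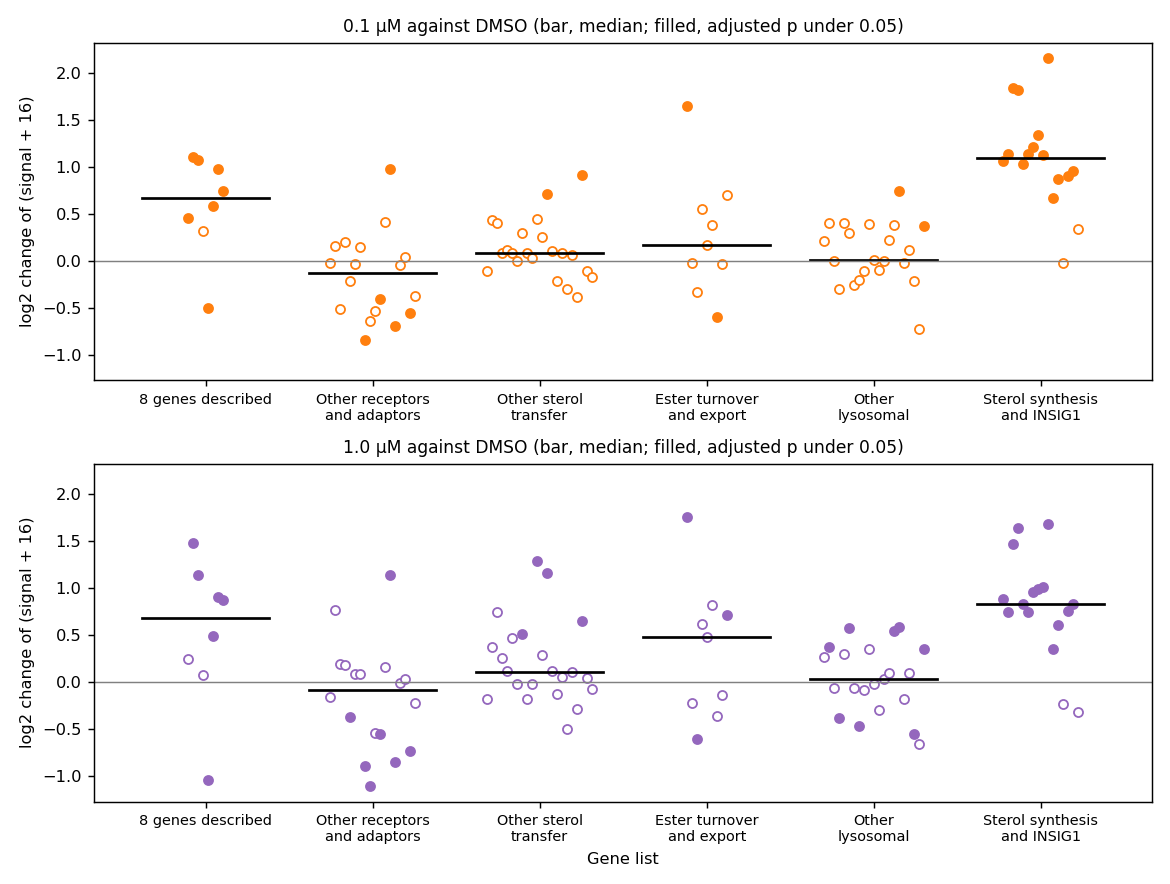
Log2 change of (signal + 16) of every tested gene in 6 lists at 0.1 µM (upper) and 1.0 µM (lower) against DMSO. Points are genes, filled where the adjusted p was under 0.05, and bars are list medians; the median is 0.68 for the 8 genes described and 0.83 for sterol synthesis genes at 1.0 µM, and lies between −0.09 and 0.48 for the other lists.

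The genes closest in profile were found as the smallest root mean square difference over the 9 arrays, on the log2 scale after subtracting each gene's DMSO mean. For LRP8 these were IFRD1 (0.09), FYN (0.11) and STEAP1 (0.11), and for VLDLR PDE6B (0.11), LOXL1-AS1 (0.12) and APLF (0.13). For NPC1 they were CEBPB (0.05), NFKBIE (0.09) and PABPC1L (0.12), with CEBPB at 1.17 and NPC1 at 1.14 at 1.0 µM. STARD4 was nearest to PNMA6A (0.11), ANXA2R-OT1 (0.14) and HES6 (0.14). SCARB1 was nearest to NCAPD2 (0.09), ITM2C (0.09) and CLU (0.10), and SOAT1 to TSPAN31 (0.08), PDCD2 (0.08) and ZNF302 (0.10). These distances describe 9 arrays that share 3 groups and carry no test.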

How the data were processed

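Total RNA was labelled with biotin and hybridised to 9 HG-U133 Plus 2.0 arrays. The deposited values are MAS5 signals, a linear intensity per probe set (the authors' processing, per the submitters' processing notes, version not given in the sources used here), scaled so that the mean trimmed by 2% at each end is 500.1.

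Samples were grouped by title. The treatment field of the 1.0 µM samples says 0.1 µM, against their title and source name; for 0.1 µM replicate 1 the description field gives DMSO; DMSO is given as 0.05% and 0.5%. The design text also names 22Rv1 cells, not analysed here.

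Of 54675 probe sets 62 controls were left out. Log2(signal + 16) was used without further normalization; this understates changes of dim genes. Symbols came from GEO's platform annotation, updated by Entrez identifier to RefSeq (41037 of 41091 with 1 symbol; 1801 with several were not used). The level filter, the 40th percentile of mean log2 level (signal 38.95), left 32768 probe sets, and the brightest stood for each gene (13948). Suffixes _s_at and _x_at mark probe sets that can bind related transcripts. All groups were fitted together with limma 3.58.1 in R 4.3.3 (eBayes with trend; 6 residual and 5.93 prior degrees of freedom; Benjamini-Hochberg over all genes, or over all probe sets), tested on simulated data. Confidence intervals are 95%. The number of arrays limits the precision.

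Named genes are all members, up to 4 genes of smallest p per list at 1.0 µM against DMSO, and the 3 nearest in profile of each member called at 1.0 µM against DMSO (so not NPC2 and LIPA); exceptions are marked. Members and lists were chosen with earlier results of these data known. The 23 alternatives are other constants, filters, normalizations, variance settings, blocks, spike sets (9 spike probe sets, parted at log2 11.67), a mean over probe sets and each array left out.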

Additional observations from a re-analysis of the deposited data

Results flagged for a closer look

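A probe set of LRP8-DT, a transcript that starts beside LRP8 and runs the other way, was not among the members and lay below the level filter. Its signal was 11.1, 4.6 and 19.2 in DMSO, 19.1, 15.7 and 19.9 at 0.1 µM and 25.3, 31.0 and 23.6 at 1.0 µM (mean 26.6). It is given because every 1.0 µM array was above the DMSO arrays, in values left out of the main comparisons. Among genes above the filter 37.2% had no overlap between these 2 groups, in either direction. The difference was not tested in the main fit, since all values are below the filter.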

How the results depend on the processing

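Of 552 values of single members under alternatives 487 kept their direction and their side of the threshold, 51 lost a call, 6 gained one and 8 changed sign. The calls of LRP8, NPC1 and STARD4 at both doses against DMSO, and of SCARB1 at 1.0 µM, held under all 23. The 8 sign changes were all of uncalled values: NPC2 at 1.0 µM against DMSO without 1.0 µM replicate 2 (−0.034), and, for 1.0 µM against 0.1 µM, VLDLR in the higher spike set (−0.11), NPC1 (−0.03) and STARD4 (0.01) without 0.1 µM replicate 2, NPC1 (−0.082), STARD4 (0.014) and SOAT1 (0.041) without 1.0 µM replicate 2, and SOAT1 in the lower spike set (0.14). Leaving out 1 array, NPC2 at 1.0 µM against DMSO ran from −0.034 to 0.15, and for 1.0 µM against 0.1 µM NPC1 ran from −0.082 to 0.15, STARD4 from −0.18 to 0.014 and SOAT1 from −0.17 to 0.041.

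At 0.1 µM against DMSO 7 member genes, 8 member probe sets and 1674 genes were called. Member genes fell to 4 without the variance trend, 4 with the replicate block and 3 in the lower spike set; member probe sets to 5 with the replicate block and 4 in the lower spike set, where 313 genes were called with 1 array at 0.1 µM. Leaving out 1 array gave 3 to 8 member genes, 5 to 9 member probe sets and 843 to 1996 genes. At 1.0 µM against DMSO the same gave 5 to 6, 8 to 9 and 2356 to 3321.

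For 1.0 µM against 0.1 µM the 114 genes (54 higher, 60 lower) became 67 without the filter, 173 with quantile normalization, 23 without the variance trend, 64 with the 6 arrays compared, 51 (11 higher, 40 lower) under median centring, 23 with the replicate block, 256 with the spike block, 384 in the higher spike set and 1 in the lower, and 11 to 183 leaving out 1 array. Among members 1 probe set (201819_at of SCARB1) was called with the filter at the 60th percentile, with the 6 arrays, with the spike block and in the higher set; leaving out 1 array gave 0 to 1 genes and probe sets. The causes were not tested. Deviations of same-numbered arrays had correlations of −0.34 to 0.22 over 9 pairs, 1 over 0.1. Most of these pairs join arrays of different spike sets, so they cannot show whether the numbers pair the arrays. The same-numbered pairs within a spike set were at 0.22, 0.04 and −0.08. VLDLR is dim, and 3 member probe sets below the filter give no information.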
